A study of Caenorhabditis elegans with 39 samples.

Results

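The change in microRNA levels late in the sampled development of wild type Caenorhabditis elegans was measured by setting the libraries of 28, 29 and 30 h against those of 23, 24 and 25 h. These are 6 of the 39 small RNA libraries of a study on phosphorylation of the Argonaute protein ALG-1 and microRNA binding, and they were taken by genotype and hour alone. All 6 came from whole animals of N2, the standard wild type strain, grown at 25 °C and counted in hours from the plating of synchronized first-stage (L1) larvae. For comparison, the same hours were read in Alg1E and Alg1A, labelled as mutants of ALG-1 whose changes are not spelled out in the labels. Each genotype and hour has 1 library, so 3 neighbouring hours stand in for replicates. The labels do not give separate cultures, and the p-values below measure the spread between neighbouring hourly libraries, which holds both development within a window and technical differences. In whole animals, fewer cells of a type and less RNA per cell cannot be told apart. The labels give no larval stage.

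MicroRNAs (miRNAs) are short RNAs that an Argonaute carries to matching messenger RNAs, whose output falls. Each is cut from a hairpin precursor, which can release a 5p and a 3p arm. One arm, here called the major one, is usually retained by the Argonaute and gives most reads, and the other, the minor arm, is usually discarded. In C. elegans larvae miRNAs are best known for timing, since lin-4, let-7 and the let-7 relatives miR-48, miR-84 and miR-241 set the order of stage-specific cell fates.

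The table lists 437 mature miRNAs, of which 70 had no read in the 6 libraries and 238 had enough reads to be tested. The libraries of 28 to 30 h held 1751599 to 2724406 miRNA reads, against 3529334 to 4179780 in those of 23 to 25 h, so the later window was the shallower in every library. Reads outside any annotated miRNA took 35.5% to 54.1% of the counted reads at 28 to 30 h and 27.9% to 44.5% at 23 to 25 h. Levels are miRNA read counts put on a common library size (CPM) with factors from the trimmed mean of M-values (TMM), which takes most miRNAs to be unchanged. The median SD of a miRNA within a window was 0.20 log2 units at 28 to 30 h and 0.38 at 23 to 25 h.

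A small set of miRNAs rose strongly, and none of the 5 with most reads was called. miR-85-3p, miR-246-3p, miR-357-3p, miR-358 and miR-5592-5p were 7.57-fold to 22.5-fold higher at 28 to 30 h, and miR-786-3p, miR-77-5p and miR-240-5p were 2.11-fold to 2.60-fold higher. The strongest decrease was that of miR-235-5p, the minor arm of a hairpin whose major arm holds blast cells of starved L1 larvae quiescent. edgeR's quasi-likelihood test called 15 of 238 miRNAs at an adjusted p under 0.05, which is 6.3%, with 12 higher (5.04%) and 3 lower (1.26%). At an unadjusted p under 0.05 there were 43, with 26 higher and 17 lower. All 12 increases exceeded 2-fold, 9 exceeded 4-fold and 7 exceeded 8-fold, while 1 of the 3 decreases exceeded 2-fold. The median log2 change of all tested miRNAs was -0.05. The 15 called miRNAs together took 0.424% to 0.873% of the miRNA reads of a library at 28 to 30 h and 0.0907% to 0.189% at 23 to 25 h.

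The number of calls hung on single libraries. Leaving out the 24 h or the 29 h library left 0 calls by edgeR, with 37 and 31 miRNAs at an unadjusted p under 0.05, leaving out the 28 h library left 4, and leaving out the 25 h library gave 52, among them all 15. All 15 kept their direction in each of these fits. With every library thinned to the depth of the smallest, 18 miRNAs were called, all 15 among them. With total counts in place of TMM the split was 13 higher and 0 lower.

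**Figure D1:**
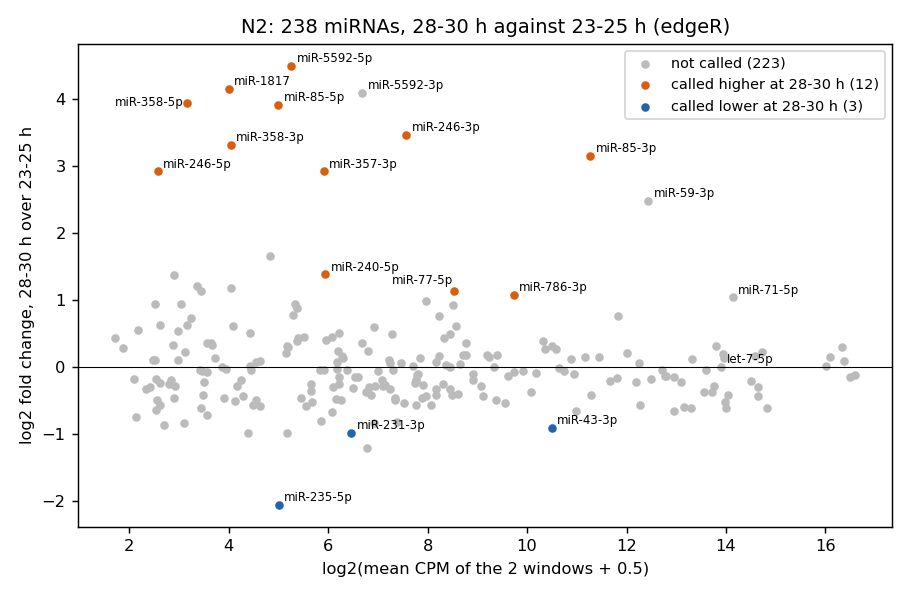
Log2 fold change of 28 to 30 h over 23 to 25 h (vertical) against log2 of the mean CPM of the windows (horizontal) for 238 miRNAs of N2, each point 1 miRNA. The 12 called increases (orange) lie above a log2 change of 1, the 3 called decreases (blue) below 0, and the most abundant miRNAs at the right lie near 0, with miR-71-5p, at 1.04, above them.

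miR-85-3p, which represses the heat-shock gene hsp-70 after heat stress, was at 2233, 5226 and 5821 CPM at 28, 29 and 30 h, against 170 to 930.3 CPM at 23 to 25 h. The windows were far apart, and the lowest later value was well above the highest earlier one. Its log2 change was 3.15 (SE 0.644, edgeR adjusted p = 0.0258, 3 of 3 later libraries above all 3 earlier ones), or 8.89-fold. At 28 to 30 h it was the most abundant of the called miRNAs, while at 23 to 25 h miR-43-3p was.

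The minor arm of the same hairpin, miR-85-5p, moved with it at a far lower level. It was at 25.6, 62.9 and 88.6 CPM at 28, 29 and 30 h, against 1.77, 1.60 and 8.32 CPM at 23, 24 and 25 h. No later library came near an earlier one, and the log2 change was 3.91 (SE 0.722, edgeR adjusted p = 0.0236). The mir-85 hairpin lies on chromosome II from 8393553 to 8393658 (+ strand, ce11), in an intron of F49E12.8 on the opposite strand.

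miR-246-3p, whose loss shortens adult lifespan, was at 230.2, 360.3 and 455.9 CPM at 28, 29 and 30 h and at 17.7, 20.8 and 56.3 CPM at 23, 24 and 25 h. The later window lay wholly above the earlier one, in which 25 h was already the highest. The log2 change was 3.46 (SE 0.508, edgeR adjusted p = 0.0236), the smallest unadjusted p of all tested. Its minor arm miR-246-5p, named here after its values were seen, averaged 9.69 ± 1.9 CPM at 28 to 30 h and 1.25 ± 0.977 CPM at 23 to 25 h (SD, n = 3 each), a log2 change of 2.92 (edgeR adjusted p = 0.0236). The hairpin lies outside protein-coding genes on chromosome IV from 10940134 to 10940230 (+ strand).

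Of 21 clusters, hairpins within 10 kb on the same strand with at least 2 of them tested, 3 held a called member. These clusters held 53 tested hairpins. Of all tested miRNAs 6.3% were called, a share per miRNA that cannot be set directly against a count of clusters with several arms each. mir-357 and mir-358 lie on chromosome V from 8580542 to 8580651 and from 8580858 to 8580967 (- strand), inside an intron of symk-1 on the opposite strand. miR-357-3p, which shares its seed family with miR-232, was at 93.2, 115 and 108 CPM at 28, 29 and 30 h, against 5.07, 9.59 and 27.2 CPM at 23, 24 and 25 h. The later libraries were close to each other and the earlier ones climbed by the hour. Its log2 change was 2.92 (SE 0.557, edgeR adjusted p = 0.0255).

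From mir-358 both arms rose. miR-358-3p was at 23.4, 29.3 and 34.6 CPM at 28, 29 and 30 h and at 0.253, 2.40 and 6.10 CPM at 23, 24 and 25 h, a log2 change of 3.32 (edgeR adjusted p = 0.0266). miR-358-5p had 99 reads in the 3 later libraries against 11 in the 3 earlier ones, with 0 reads at 23 h, which allows up to 0.76 CPM there (3 reads, counting error only). That is 9.66, 17.0 and 21.0 CPM at 28, 29 and 30 h against 0, 1.07 and 1.94 CPM at 23, 24 and 25 h, and the fitted log2 change of 3.94 (edgeR adjusted p = 0.0236) rests on those few early reads.

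A further cluster holds mir-240 and mir-786, on chromosome X from 7882622 to 7882718 and from 7882751 to 7882840 (+ strand), outside protein-coding genes. miR-786 acts in the intestine, where its loss disturbs the defecation rhythm. miR-786-3p was at 1070, 1016 and 1371 CPM at 28, 29 and 30 h, against 531, 505 and 601 CPM at 23, 24 and 25 h, and miR-240-5p was at 59.4, 95.5 and 110 CPM at the later hours and 29.6 to 37.0 CPM at 23 to 25 h. Neither pair of windows overlapped, and the gaps were small beside those of the genes above. The log2 changes were 1.08 (SE 0.188, edgeR adjusted p = 0.0236) for miR-786-3p and 1.38 (SE 0.281, edgeR adjusted p = 0.0258) for miR-240-5p. The other arms of both hairpins had like values without passing the test, with log2 changes of 0.99 for miR-240-3p (edgeR adjusted p = 0.0548) and 1.18 for miR-786-5p (edgeR adjusted p = 0.109).

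The remaining 3 increases have no role given here. miR-5592-5p had the largest change of all, at 43.1, 79.9 and 93.7 CPM at 28, 29 and 30 h, against 0.253, 1.07 and 8.32 CPM at 23, 24 and 25 h. Its log2 change was 4.49 (SE 0.885, edgeR adjusted p = 0.0258). The more abundant arm, miR-5592-3p, was at 141, 222 and 216 CPM at 28, 29 and 30 h, against 0.507, 2.66 and 31.1 CPM at 23, 24 and 25 h. The windows did not overlap, and the log2 change of 4.09 (SE 1.09) had an edgeR adjusted p of 0.0651. It was called in 9 of 18 alternative settings, DESeq2 (adjusted p = 0.0259) among them. The annotation holds mir-5592 as overlapping copies on both strands of chromosome X, from 13759245 to 13759308 (- strand) and from 13759247 to 13759310 (+ strand), in an intron of aakb-1. The counting is not stated to use strand, so whether the copies share reads was not tested.

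miR-1817, from chromosome I between 10869370 and 10869474 (- strand), was at 13.4, 18.9 and 56.2 CPM at 28, 29 and 30 h and at 1.52, 1.07 and 2.22 CPM at 23, 24 and 25 h. The 30 h library was far above the other later ones, and the log2 change was 4.15 (SE 0.657, edgeR adjusted p = 0.0236). miR-77-5p, from chromosome II between 12519268 and 12519367 (+ strand), was at 487, 513 and 517 CPM at 28, 29 and 30 h, against 195, 211 and 286 CPM at 23, 24 and 25 h. The later libraries were nearly level, and its log2 change was 1.13 (SE 0.203, edgeR adjusted p = 0.0236).

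Of the 3 decreases only that of miR-235-5p exceeded 2-fold. None of the 3 was called with total counts in place of TMM or without the 30 h library. miR-235-5p was at 16.7, 8.51 and 11.4 CPM at 28, 29 and 30 h, against 23.3, 70.3 and 60.2 CPM at 23, 24 and 25 h. The 23 h library lay close to the later window and below the other libraries of its own. The log2 change was -2.06 (SE 0.466, edgeR adjusted p = 0.0409), while the major arm miR-235-3p had overlapping windows and a log2 change of -0.21 (edgeR adjusted p = 0.80). The hairpin lies on chromosome I from 6162291 to 6162387 (- strand).

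miR-43-3p, a member of the mir-2 seed family, was at 932, 1071 and 1020 CPM at 28, 29 and 30 h and at 1842, 2226 and 1594 CPM at 23, 24 and 25 h. Its windows did not overlap, with a log2 change of -0.91 (SE 0.184, edgeR adjusted p = 0.0258). Its neighbours in the cluster of mir-42, mir-43 and mir-44 on chromosome II were not called, with log2 changes of 0.12 for miR-42-3p and -0.61 for miR-44-3p. miR-231-3p, from chromosome III between 7545057 and 7545155 (- strand), was at 54.2, 66.7 and 56.8 CPM at 28, 29 and 30 h, against 131, 127 and 92.4 CPM at 23, 24 and 25 h. Here 25 h was already the lowest of its window, and the log2 change was -0.98 (SE 0.227, edgeR adjusted p = 0.0441).

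The hours between the windows and before them place these changes in time. For 10 of the 12 increases and 1 of the 3 decreases, both 26 and 27 h lay between the windows. Every increase had its highest of 13 hourly values within 28 to 30 h, and every decrease had its lowest there. The miRNAs were called on the difference between these windows, which favours such values. The share of all tested miRNAs was not counted for either feature. At 25 h, 11 of the 12 increases were at the highest value of their window, as were 43.3% of all tested miRNAs, and at 28 h 11 of the 12 were at the lowest of theirs, as were 36.6% of all tested.

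The hour at which a miRNA passed the midpoint of its window means, on log2(CPM + 0.5) with a straight line between hours, ran from 25.5 h for miR-358-3p and miR-5592-5p to 27.7 h for miR-240-5p. miR-358-3p and miR-5592-5p were at 0.253 CPM at 23 h, below the added 0.5, so their midpoints depend on that constant. Early levels separated the increases further. miR-5592-5p stayed at 0 to 0.447 CPM and miR-357-3p at 1.75 to 3.49 CPM through 18 to 22 h. In those hours miR-85-3p was at 5.90 to 82.7 CPM, miR-786-3p at 23.3 to 218 CPM and miR-77-5p at 118 to 253 CPM. miR-235-5p did not keep 1 direction, with 78.0 CPM at 18 h, 11.2 CPM at 22 h and 70.3 CPM at 24 h before its later decrease.

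**Figure D2:**
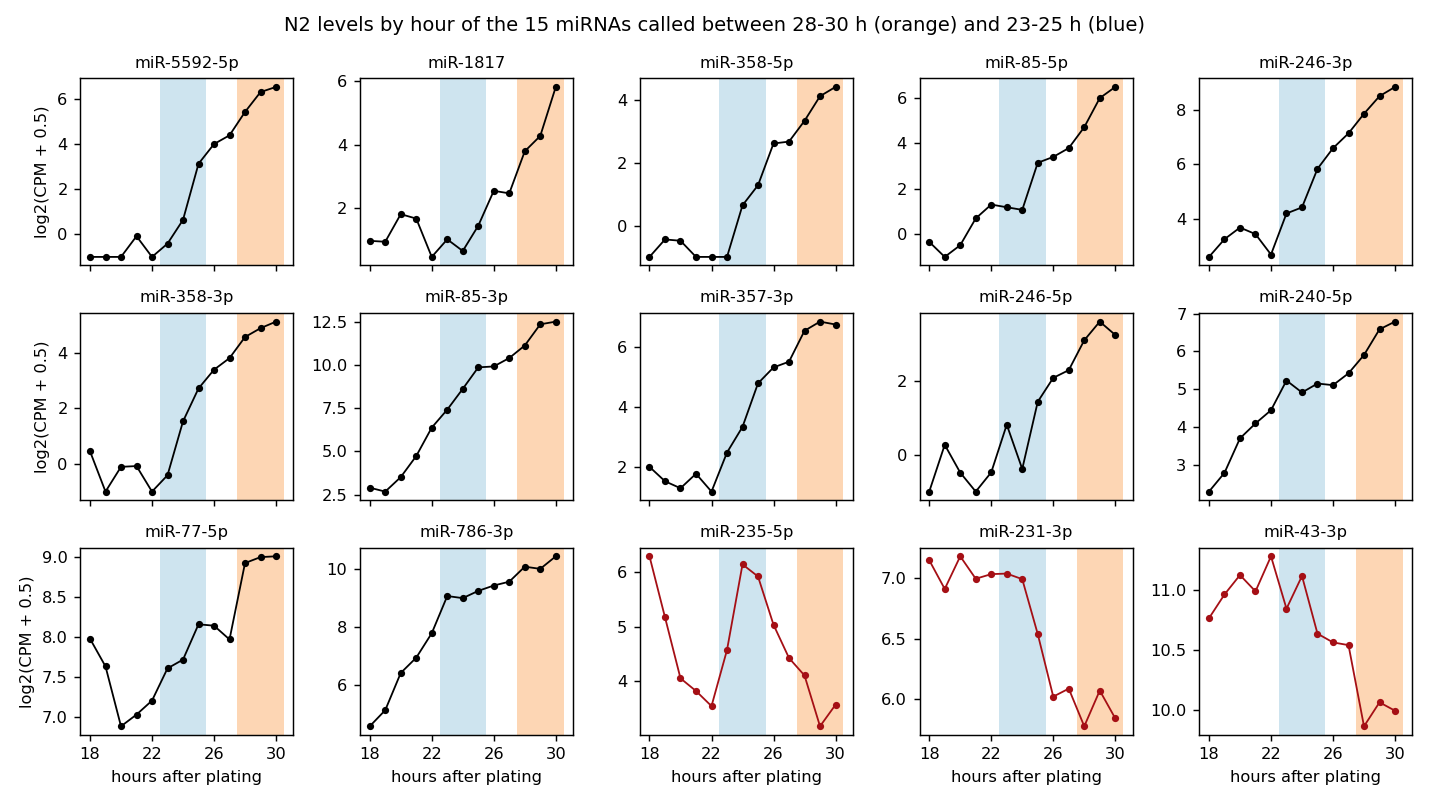
Level in N2 (log2 of CPM + 0.5, vertical, each panel on its own scale) by hour after plating (horizontal) for the 15 called miRNAs, 1 library per point, with 28 to 30 h in orange and 23 to 25 h in blue. The 12 increases (black) reach their highest value in the orange window, and of the decreases (red) miR-235-5p has an earlier low at 22 h, at 11.2 CPM.

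Beside the calls, 46 further miRNAs had windows that did not overlap. In all, 61 of 238 (25.6%) had such windows, 32 higher (13.4%) and 29 lower (12.2%), and all 15 called ones were among them. Several of the uncalled ones are abundant. miR-71-5p, which promotes long life and is released from a hairpin in an intron of ppfr-1, was at 26647, 25463 and 20352 CPM at 28, 29 and 30 h, against 11333, 8455 and 15488 CPM at 23, 24 and 25 h. The windows were apart, but the log2 change of 1.04 (SE 0.259) had an edgeR adjusted p of 0.0548. It was called in 10 of 18 alternative settings. At 20 and 21 h it had already been at 19882 and 20761 CPM.

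miR-59-3p was at 7006, 11081 and 10019 CPM at 28, 29 and 30 h, against 588, 949 and 3511 CPM at 23, 24 and 25 h. The 25 h library was the highest of its window, and the log2 change of 2.48 (SE 0.632) had an edgeR adjusted p of 0.0548. It was called in 10 of 18 alternative settings, with log2 changes from 2.03 to 3.64. Lower values without a call included those of miR-254-3p, with a log2 change of -1.21, and miR-1022-5p, with -0.99, both at an edgeR adjusted p of 0.0548. These near misses were picked after their values were seen.

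Both arms passed the filter for 94 hairpins, and 57 of them had arms with changes of the same sign. Pearson's r of the log2 changes of the arms was 0.83 and Spearman's rho 0.42 across hairpins, which share the 6 libraries and are not independent replicates. At 3 hairpins, mir-85, mir-246 and mir-358, both arms were called. Of the 15 called miRNAs, 7 were minor arms, with 6 higher and 1 lower of the 94 minor arms tested. Of the 131 major arms of paired hairpins 5 were higher and 2 lower. Both counts stand near the 6.3% called of all tested miRNAs.

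The ratio of minor to major arm, which needs no scaling between libraries, was tested with limma for 93 hairpins and called for 2 (2.15%), with 9 at an unadjusted p under 0.05. For miR-235 the minor arm had 6.08, 4.43 and 8.16 reads per 100 of the major arm at 28, 29 and 30 h, against 23.8, 26.6 and 17.8 at 23, 24 and 25 h. All 3 later ratios were far below all earlier ones, and the log2 ratio fell by 1.87 (SE 0.340, limma adjusted p = 0.0347). For miR-43 the ratio was 5.82%, 6.18% and 3.78% at 28, 29 and 30 h, against 1.92%, 1.16% and 1.55% at 23, 24 and 25 h. The windows were apart in the other direction, a log2 change of 1.77 (SE 0.340, limma adjusted p = 0.0347). Here the arms themselves moved apart, since miR-43-3p fell and miR-43-5p had a log2 change of 0.89 (edgeR adjusted p = 0.115). Both ratio calls were lost when any 1 library other than that of 25 h was left out, and with the hour within the window as a covariate.

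The arm ratio was not called for any tested hairpin with a called increase, which does not show that it was unchanged. It was 1.29% ± 0.202 at 28 to 30 h against 0.781% ± 0.332 at 23 to 25 h for miR-85, and 36.6% ± 6.45 at 28 to 30 h against 38.9% ± 11.6 at 23 to 25 h for miR-5592 (SD, n = 3 each). For miR-246 it was 2.94% ± 0.832 at 28 to 30 h and 4.12% ± 2.93 at 23 to 25 h. The limma adjusted p was 0.607 for miR-85, 0.843 for miR-5592 and 0.765 for miR-246. For miR-358, with few early reads, it was 53.3% ± 10.5 at 28 to 30 h and 25.4% ± 22.9 at 23 to 25 h (SD, n = 3 each), at a limma adjusted p of 0.639. For miR-59, whose level was not called, it was 0.461% ± 0.121 at 28 to 30 h and 0.910% ± 0.294 at 23 to 25 h (SD, n = 3 each), a log2 change of -0.98 (limma adjusted p = 0.33). For miR-71 the ratio was 18.2% ± 3.87 at 28 to 30 h against 34.3% ± 10.3 at 23 to 25 h (SD, n = 3 each), a log2 change of -0.90 that was not called either (limma adjusted p = 0.33).

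**Figure D3:**
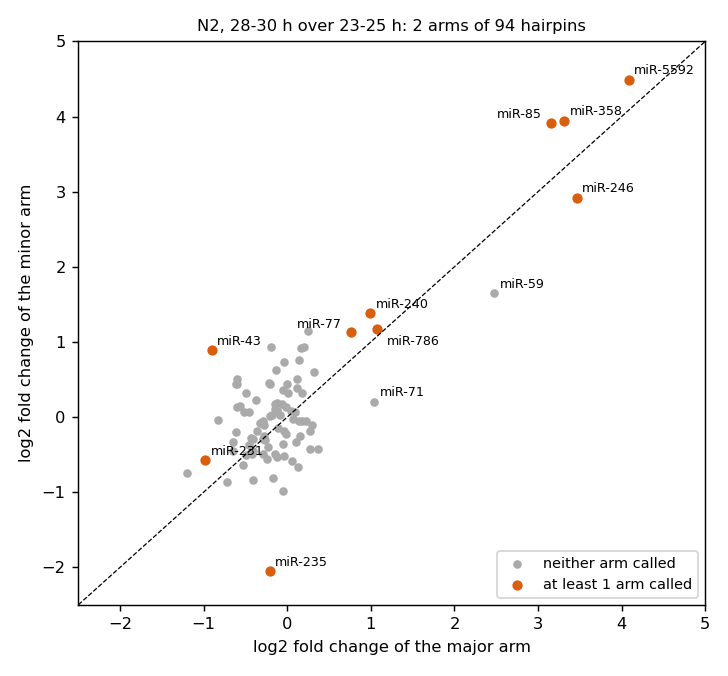
Log2 fold change of the minor arm (vertical) against that of the major arm (horizontal), 28 to 30 h over 23 to 25 h in N2, for 94 hairpins, each point 1 hairpin. The hairpins of the strong increases lie near the dashed line of equal change at the upper right, while miR-235 and miR-43, the 2 with a called arm ratio, lie far from it.

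The timing miRNAs were not called in this step. let-7-5p, which drives the larval to adult change of cell fate, was at 13220, 13891 and 18915 CPM at 28, 29 and 30 h, against 17609, 13562 and 14815 CPM at 23, 24 and 25 h. The windows overlapped almost wholly and the log2 change was 0.00 (SE 0.214, edgeR adjusted p = 0.996). lin-4-5p, which acts from the first larval stage on, was at -0.29, miR-48-5p at -0.42, miR-84-5p at 0.13, miR-241-5p at 0.27 and miR-237-5p at -0.20 on the log2 scale. Of these 6, edgeR called 0, with 0 at an unadjusted p under 0.05, and DESeq2 and limma called 0. The wider let-7 family likewise had 0 of 8 called by edgeR, DESeq2 or limma and 0 at an unadjusted p under 0.05. Its median log2 change was -0.14. Of all tested miRNAs, edgeR called 15 of 238 (6.3%), with 43 at an unadjusted p under 0.05. For lists this small, 0 calls is near that share.

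Markers of single tissues were not called, beside 6.3% called of all tested miRNAs. miR-1-3p, the muscle miRNA, was at 87009 ± 10622 CPM at 28 to 30 h and 81657 ± 29287 CPM at 23 to 25 h (SD, n = 3 each), a log2 change of 0.09. The intestinal miR-60-3p was at 29283 ± 1886 CPM at 28 to 30 h and 25056 ± 6099 CPM at 23 to 25 h (SD, n = 3 each), a log2 change of 0.22. The windows overlapped for both, and neither was called by edgeR, DESeq2 or limma or had an unadjusted p under 0.05. The neuronal miRNAs lsy-6-3p, miR-124-3p and miR-791-3p had log2 changes of -0.58, -0.49 and -0.86, and edgeR, DESeq2 and limma called none of the 3, with 1 at an unadjusted p under 0.05. That one was lsy-6-3p, which sets the identity of a taste neuron, at 39.7, 34.5 and 37.5 CPM at 28, 29 and 30 h, against 56.0, 59.4 and 51.6 CPM at 23, 24 and 25 h. Its windows did not overlap, and its edgeR adjusted p was 0.161.

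The mir-35 family, needed in the embryo and the germline, had 0 of 8 members called by edgeR, DESeq2 or limma. It also had 0 at an unadjusted p under 0.05. Of all tested miRNAs, edgeR called 6.3%, and 43 of 238 had an unadjusted p under 0.05. The family's median log2 change was -0.30, and 1 of 8 lay above 0, beside 106 of 238 of all tested. The members were at 91.2 to 1974 CPM on average at 28 to 30 h and at 101 to 1820 CPM at 23 to 25 h. miR-41-3p was the most uneven, with 92.1, 125 and 310 CPM at 28, 29 and 30 h, against 124, 100.4 and 557 CPM at 23, 24 and 25 h. The value of 557 CPM was that of 25 h, and without that library its log2 change was 0.65 in place of -0.57.

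The other lists were chosen with earlier results of these data known, and their counts stand beside 6.3% called of all tested. In a list of late gonad and reproductive candidates 2 of 3 were higher, miR-246-3p and miR-786-3p, all 3 had an unadjusted p under 0.05 and the median log2 change was 1.08. It was put together with such results known, so its direction is no independent support. The mir-2 family had 1 of 4 lower, miR-43-3p, beside a median of -0.41. The mir-232 family had 1 of 2 higher, miR-357-3p, while miR-232-3p was not called. Of 7 miRNAs with roles in lifespan or stress 1 was higher, miR-246-3p, with a list median of -0.07. All 6 members of the mir-51 family had log2 changes below 0, from -0.61 for miR-56-3p to -0.13 for miR-53-5p. All 4 of the mir-44 family did too, and edgeR, DESeq2 and limma called none of either. Of all tested miRNAs 106 of 238 lay above 0, and of the major arms of paired hairpins 52 of 131. In the mir-44 family miR-44-3p and miR-45-3p both had -0.61, and whether they share reads was not tested. At an unadjusted p under 0.05 there were 0 in the mir-51 family and 1 in the mir-44 family, miR-61-3p. The mir-58, mir-64, mir-72, mir-75, mir-46, mir-87, mir-238 and mir-251 families, the lin-4 family and the mirtrons, made by splicing, had no called member in edgeR, DESeq2 or limma and 0 at an unadjusted p under 0.05. The 5 miRNAs with most reads, miR-58a-3p, miR-52-5p, miR-70-3p, miR-1-3p and miR-81-3p, had log2 changes of -0.12, -0.15, 0.30, 0.09 and 0.14 and were not called.

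**Figure D4:**
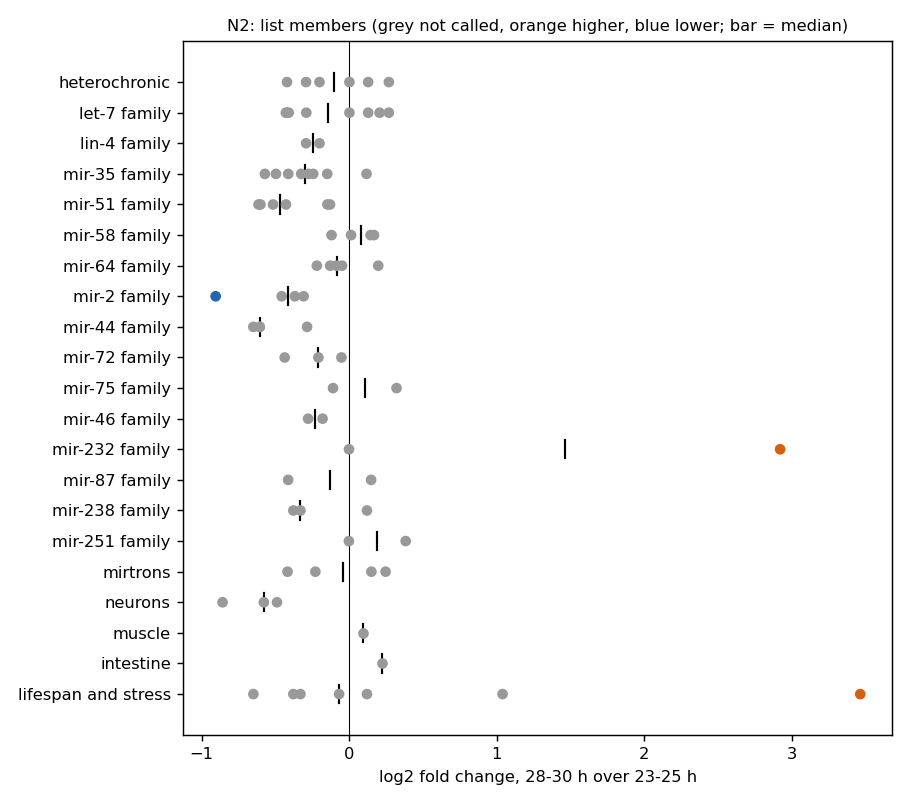
Log2 fold change of 28 to 30 h over 23 to 25 h in N2 (horizontal) for the tested members of the lists (rows). The list of late gonad and reproductive candidates is not drawn. Called increases are in orange, called decreases in blue and uncalled members in grey, with a bar at the list's median. Nearly all members lie between -1 and 1, and miR-357-3p at 2.92 and miR-246-3p at 3.46 stand apart.

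The same step was read in the mutants in 1 fit of 18 libraries, where edgeR tested 255 miRNAs and called 24 in Alg1E (9.41%), 22 in Alg1A (8.63%) and 28 in N2 (11%). Higher calls made up 7.84% in Alg1E, 8.63% in Alg1A and 7.06% in N2, and lower calls made up 1.57% in Alg1E, 0% in Alg1A and 3.92% in N2. Of the 12 increases of N2 in its own fit, 9 were called higher in Alg1E, 11 in Alg1A and 11 in N2 in this fit. All 12 had a positive change in each. The N2 count comes from the same 6 libraries that gave the 12 increases and is no independent support. At 23 to 25 h, miR-358-5p, miR-246-5p, miR-5592-5p, miR-358-3p and miR-1817 had 0 to 3 reads in Alg1E. In Alg1A, miR-358-5p and miR-246-5p had 0 to 2 reads at those hours. These steps rest on few early reads. miR-246-3p had log2 changes of 3.59 in Alg1E, 3.65 in Alg1A and 3.48 in N2. miR-85-3p had 3.40 in Alg1E, 3.35 in Alg1A and 3.17 in N2. miR-358-5p had 27 reads in Alg1E and 76 in Alg1A at 28 to 30 h against 0 reads at 23 to 25 h in both, at least 8.54-fold higher in Alg1E and at least 24.7-fold higher in Alg1A (against 3 reads over the window).

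The decreases did not carry over as calls. edgeR called 0 of the 3 lower in Alg1E, where 1 had a negative change, and 0 in Alg1A, where all 3 had one. miR-235-5p was at 257, 346 and 285 CPM at 28, 29 and 30 h in Alg1E, against 122, 92.3 and 129 CPM at 23, 24 and 25 h, so the Alg1E windows lay apart in the direction opposite to N2. The difference between the steps was 3.44 log2 units (SE 0.717, edgeR adjusted p = 0.0253). In Alg1A miR-235-5p was at 19.2, 17.1 and 10.4 CPM at 28, 29 and 30 h, against 13.7, 41.6 and 80.8 CPM at 23, 24 and 25 h, with overlapping windows.

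Over all miRNAs, the step differed between Alg1E and N2 for 9 of 255 (3.53%), with 4 more positive (1.57%) and 5 more negative (1.96%) in Alg1E and 47 at an unadjusted p under 0.05. Of the 15 miRNAs called in N2, 1 was among them, miR-235-5p. miR-74-5p (1.79) and miR-73-5p (1.44) were also more positive, and miR-43-5p (-1.93), miR-42-5p (-1.44) and miR-79-5p (-1.21) more negative, each at an edgeR adjusted p of 0.0253. miR-43-5p in Alg1E was at 95.2, 84.8 and 88.7 CPM at 28, 29 and 30 h, against 185, 207 and 177 CPM at 23, 24 and 25 h. In N2 it was at 54.2, 66.2 and 38.6 CPM at 28, 29 and 30 h, against 35.5, 25.8 and 24.7 CPM at 23, 24 and 25 h. The windows lay apart in opposite directions. At least 7 of the 9 were minor arms, among them every one named in this paragraph. Of the 238 miRNAs tested in N2 alone, 94 were minor arms. Scaling by total counts turned the split of 4 to 5 into 2 to 11, scaling on major arms turned it into 2 to 12, and all 9 calls were lost without the 24, 28 or 29 h library of N2 or the 28 or 29 h library of Alg1E.

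Between Alg1A and N2 edgeR called a different step for 0 of 255 miRNAs (0%), with 9 at an unadjusted p under 0.05, and DESeq2 called 0, with 3 at that level. miR-5592-5p, the largest increase of N2, had 225 reads at 28 to 30 h and 1 read at 23 to 25 h in Alg1E, so its step there rests on a single early read. It had 449 reads at 28 to 30 h and 16 at 23 to 25 h in Alg1A, and 450 and 35 in the same windows of N2. For let-7-5p the step was 1.56 in Alg1E and 0.09 in Alg1A, with a difference between Alg1E and N2 of 1.58 (SE 0.687, edgeR adjusted p = 0.203) that was not called.

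**Figure D5:**
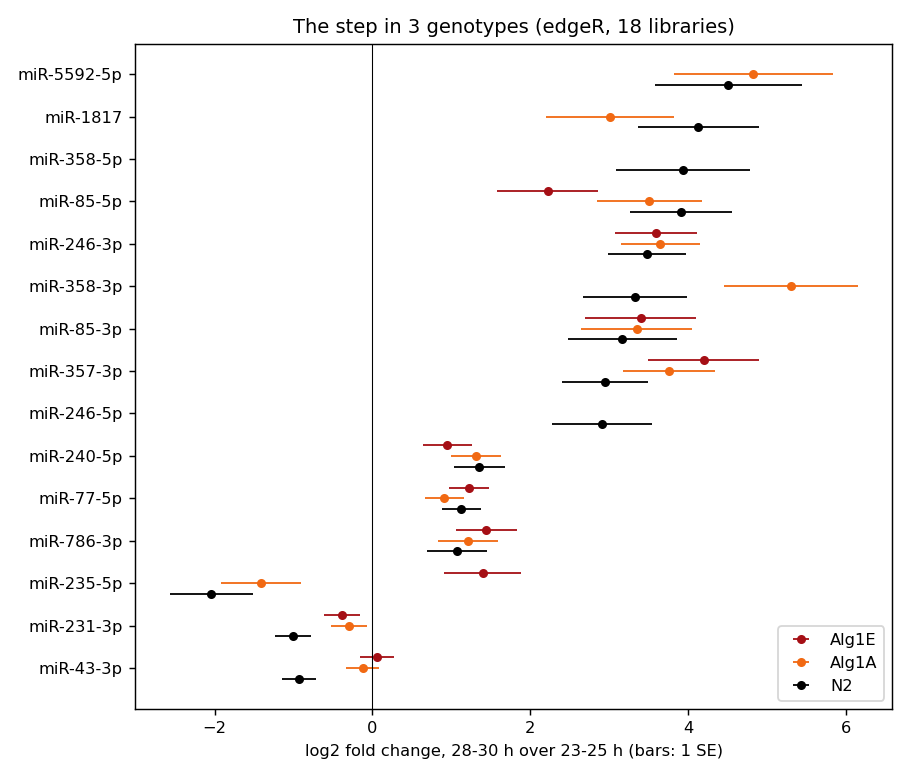
Log2 fold change of 28 to 30 h over 23 to 25 h (horizontal, bars 1 SE) in Alg1E (red), Alg1A (orange) and N2 (black) for the 15 miRNAs called in N2 (rows), from 1 edgeR fit of 18 libraries, leaving out points whose 23 to 25 h window held 3 reads or fewer. The drawn increases lie on the same side in all 3 genotypes, and miR-235-5p lies above 0 in Alg1E and below 0 in N2 and Alg1A.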

How the data were processed

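The authors deposited raw counts for each mature miRNA, without normalization, from libraries of the QIAseq miRNA kit (per the labels). The submitters' processing notes name cutadapt 2.3 and Bowtie 1.2.2, then SAMtools 1.9, HTSeq and build ce11. Their settings, and whether strand and molecular identifiers were used, are not stated in the sources used here, so PCR copies may count as reads and near-identical or antisense copies may share them. HTSeq summary entries were left out. The 6 N2 libraries were tested in edgeR 4.0.16 (R 4.3.3) with TMM, filterByExpr and two-sided quasi-likelihood tests, Benjamini-Hochberg adjusted at 0.05; SEs follow from the F statistic. Arm ratios were tested in limma 3.58.1 (prior count 0.5, at least 10 reads per arm on average). Alternatives included DESeq2 1.42.0. On simulated counts for these 6 libraries, edgeR found 34 of 60 set 2-fold changes with 5 false calls among 178 unchanged miRNAs, and 54 of 60 set 4-fold changes with 1.

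Named miRNAs were the 12 largest called increases and decreases with windows apart and at least 10 CPM, up to 6 called arm ratios and interactions, and a fixed set. The members and lists were chosen with earlier results of these data known. Of 437 entries, 424 matched a hairpin in Ensembl's WBcel235 annotation, which gave the positions. Mature sequences were not used here. Before the TMM factor, 1 CPM was 1.75 to 4.18 reads in the 6 N2 libraries.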

Additional observations from a re-analysis of the deposited data

Results flagged for a closer look

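Each of the following differed in its step (28 to 30 h over 23 to 25 h) between Alg1E and N2 by a test of the difference itself, given as the Alg1E step minus the N2 step in log2 units. The differences were 3.44 for miR-235-5p, 1.79 for miR-74-5p, -1.21 for miR-79-5p, 1.44 for miR-73-5p, -1.93 for miR-43-5p and -1.44 for miR-42-5p, each at an edgeR adjusted p of 0.0253, and 1.33 for miR-36-3p at 0.0324. For miR-36-3p, a member of the mir-35 family, levels were 469, 462 and 441 CPM at 28, 29 and 30 h in Alg1E, against 191, 220 and 407 CPM at 23, 24 and 25 h, while N2 had 398, 573 and 686 CPM at 28, 29 and 30 h, against 927, 711 and 699 CPM at 23, 24 and 25 h. Its windows lay apart in opposite directions in Alg1E and N2. miR-36-3p is a major arm, and every other miRNA flagged here is a minor arm. Alg1E libraries of 23 to 25 h held 1146950 to 2027911 miRNA reads, and the part of depth in these differences was not tested.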

How the results depend on the processing

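Against 12 higher and 3 lower miRNAs in N2, there were 13 and 0 with total counts, 10 and 1 at a mean of at least 10 CPM, 19 and 6 with DESeq2, 17 and 8 in a fit of all 13 N2 libraries, 16 and 6 in one of all 39, 20 and 6 with the hour within the window as a covariate, and 24 and 12 for a linear change over 23 to 30 h. Leaving out 1 library gave 0 to 33 higher and 0 to 19 lower. Arm ratios, 1 higher and 1 lower, became 0 and 0 with the covariate, and 0 to 3 higher and 0 to 4 lower with 1 library left out. For Alg1E minus N2 the split of 4 more positive to 5 more negative became 3 to 8 with RLE factors, 2 to 11 with total counts, 2 to 12 with TMM from major arms, 2 to 8 with no filter, 4 to 12 with DESeq2 and 1 to 2 over all 39 libraries, and 0 to 12 positive and 0 to 9 negative with 1 library left out. The causes were not tested. The thinning to the smallest library, chosen after seeing the data, gave 14 and 4. Every called miRNA of N2 kept its direction in each setting that tested it.

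Within the fixed set of named miRNAs, signs turned for 6 uncalled ones. Uncalled miRNAs outside that set were not counted here. let-7-5p was at -0.018 with no filter, -0.0088 with limma-trend, -0.00548 over all 13 N2 libraries, -0.011 with the covariate and -0.030 after thinning, and miR-41-3p at 0.00912 in the linear fit. With 1 library left out, let-7-5p lay between -0.11 and 0.089, miR-41-3p between -1.16 and 0.65, miR-84-5p between -0.12 and 0.49, miR-1-3p between -0.14 and 0.44, miR-60-3p between -0.0081 and 0.38 and miR-58a-3p between -0.26 and 0.077. No paired analysis was possible because the labels give no replicate numbers and the windows share no hour. Across genotypes the hour as a replicate block, chosen after seeing the data, gave 2 and 4 for Alg1E minus N2, 5 of these 6 among the 9, and 0 for Alg1A minus N2. Same-hour libraries of Alg1E and N2 did not pair, since their deviations from the window means correlated at -0.586 to 0.145. The same hour of N2 was the best match within the window for 0 of 6 Alg1E libraries. Between Alg1A and N2 the same-hour correlations ran from -0.235 to 0.456. There the same hour was the best match for 5 of 6 libraries, so Alg1A and N2 partly paired by hour. Depth limits low arms, since before scaling 1 CPM was 1.75 reads in the shallowest N2 library, that of 30 h. In the Alg1E library of 23 h it was 1.15 reads.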
